A study of Mus musculus with 36 samples.

Results

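The genes described here were 20 aminoacyl-tRNA synthetases of the cytosol and 18 genes of the ATF4 stress response, 38 in all, read from a table of 22918 genes measured in mouse liver. They were taken by name from the gene names in the array files. A gene needed a probe with signal clearly over background on 6 or more of the 36 arrays, and its brightest such probe was used. That kept 37 of the 38 genes. The gene left out was Slc7a11, the cystine transporter, whose probes were not well above background on any array. Mthfd2 was well above background on 34 arrays, including 4 of the 6 knockout arrays at ZT8, and the other 36 genes on all 36 arrays.

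The mice were males of 11 weeks on a C57BL/6J background, fed chow freely, and their total liver RNA was hybridised to 1-colour expression arrays, 1 array per mouse. The Insr gene, which encodes the insulin receptor, carried loxP sites around an exon (the fourth). A tamoxifen-inducible Cre driven by the transthyretin promoter, which is active in hepatocytes, removes that exon in the knockout mice (labelled IRLKO). Controls (labelled IRLWT) kept the receptor. The labels do not say when tamoxifen was given or whether the controls carried Cre. Livers were taken at Zeitgeber time 8, 12 or 16 (ZT, hours after lights on, with lights off at ZT12), which gave 6 groups of 6 mice.

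Aminoacyl-tRNA synthetases join each amino acid to its tRNA and so supply the ribosome. ATF4 is a transcription factor whose translation rises when kinases phosphorylate eIF2, as they do when amino acids run short, when proteins misfold in the endoplasmic reticulum or when haem is lacking. It then drives genes for amino acid synthesis and uptake, many of the cytosolic synthetases, and feedback regulators of signalling and translation. Growth signals acting through mTORC1, insulin among them, are also known to raise ATF4. These statements are background.

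Levels are log2 values scaled so that 0 is the 75th percentile of the spots on an array. A difference of 1 is a factor of 2 between groups, and levels are compared only within a gene. Ratios are knockout over control with the standard error (SE) of the fit, and "called" means an adjusted p under 0.05 from limma with Benjamini-Hochberg adjustment over all 22918 genes. Between 53.7% and 63.1% of the spots on an array were well above background, and the 75th percentile lay between 311 and 525 intensity units. Insr itself did not overlap between genotypes at any time. Its median was -1.40, -1.58 and -1.70 in controls at ZT8, ZT12 and ZT16, and -3.05, -3.44 and -3.18 in knockouts.

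Some knockout arrays stood apart in these genes. Replicate 3 at ZT8, replicate 1 at ZT12 and replicate 6 at ZT16 had the highest Asns of their groups, and their summed level of the dividing-cell markers Mki67, Top2a and Ccnb1 was 2.78, 1.30 and 1.67 times the 75th percentile signal. The controls ranged from 0.135 to 0.548 on that sum. Results that rest on these arrays are given with and without them.

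ATF4 binds the CARE element, a composite of a C/EBP and an ATF half-site, here searched for as TGATGNAA and its reverse complement TTNCATCA on both strands. The search covered RefSeq promoter windows of mouse build GRCm38.p6, from 250 bases before to 50 bases after the transcript start. Windows were at hand for 30 of the 38 genes, and 10 of the 30 (33.33%) held a match, against 1219 of 27025 genes (4.511%) over the whole table. Among the synthetases 5 of 13 windows matched, Gars, Iars, Tars and Yars among them. Among the stress genes 5 of 17 matched (Atf3, Chac1, Trib3, Asns and Slc7a11). Cars, Hars, Lars, Nars, Rars, Vars, Wars and Eif4ebp1 had no window in the table. A match is a run of letters and does not show that ATF4 was bound. The 30 bases around a match are given for some members whose values are described below, each read 5′ to 3′ on the strand of the gene, with the matching letters in capitals.
Gars (chr6:55037960-55037989, plus strand, 30 bases before the start): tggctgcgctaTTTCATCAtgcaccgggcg
Tars (chr15:11399655-11399684, minus strand, 15 bases before the start): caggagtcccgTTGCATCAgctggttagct
Yars (chr4:129189895-129189924, plus strand, just after the start): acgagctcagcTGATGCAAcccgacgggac
Trib3 (chr2:152344028-152344057, minus strand, just after the start): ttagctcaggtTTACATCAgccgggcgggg
Asns (chr6:7693214-7693243, minus strand, 23 bases before the start): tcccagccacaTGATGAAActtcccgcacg

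Calls among the synthetases were mostly lower in knockout livers at ZT8, in the light phase. At ZT16, in the dark phase, 6 of the 20 were called and 5 of these were higher. Over all genes 40% were called at ZT16, 19.9% higher. At ZT8, 12 of the 20 were called, 11 lower (Aars, Cars, Eprs, Farsb, Gars, Lars, Mars, Nars, Sars, Tars and Yars) and 1 higher (Hars). Over all genes 35.5% were called at ZT8, 18.7% lower and 16.7% higher. The median log2 ratio of the 20 was -0.20, against 0.01 for all genes. In 9 of them no knockout array reached any control array, a separation that 15.5% of all genes showed in either direction.

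At ZT12, the onset of the dark phase, 7 of the 20 were called, 6 lower and 1 higher, with a median ratio of -0.08, where 42.3% of all genes were called (22.7% lower and 19.6% higher). At ZT16, 6 were called, but 5 were higher and 1 lower, with a median ratio of 0.03, where 40% of all genes were called (20% lower and 19.9% higher). At ZT12, 2 synthetases (Aars and Mars) did not overlap between genotypes, as 21.4% of all genes did not, and at ZT16, 1 (Hars), against 19.2%. The counts at ZT12 and ZT16 lie below the share of all genes called at those times. Dars, Farsa, Iars, Qars, Rars, Vars and Wars were not called at any time. The mean of the 20 synthetases on each array, each gene centred on its own mean, ran from -0.22 to -0.15 in knockouts at ZT8 and from 0.01 to 0.13 in controls. At ZT16 the same mean ran from -0.13 to 0.20 in knockouts and from -0.14 to 0.14 in controls, so the genotypes overlapped.

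**Figure D1:**
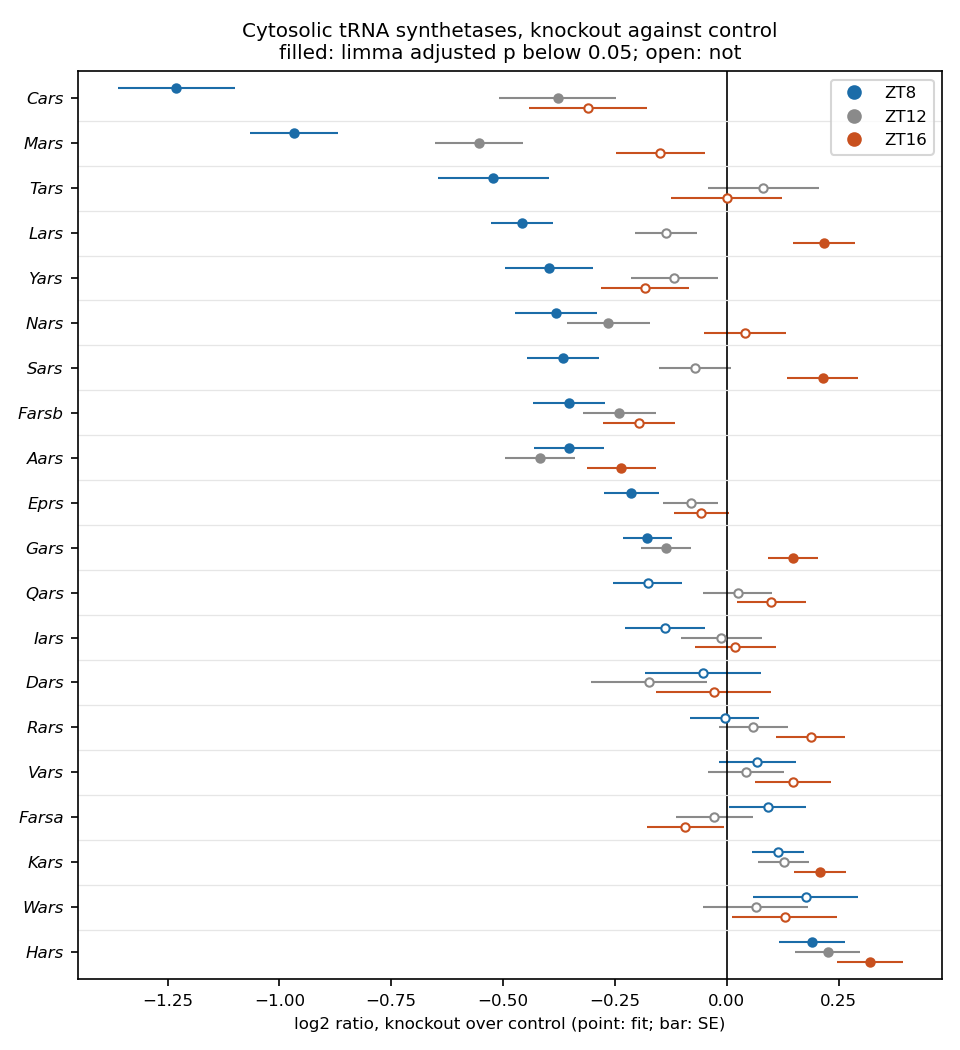
Log2 ratio of knockout over control for the 20 cytosolic synthetases (x axis; 6 mice per group), with points for the fitted ratio, bars for the SE and colours for the 3 times; filled points are called. At ZT8, 11 filled points lie below 0, and at ZT16 those of Gars, Hars, Kars, Lars and Sars lie above 0.

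Cars and Mars, which charge the tRNAs for cysteine and methionine, had the largest ratios of the synthetases at ZT8. Cars ran from 3.40 to 3.99 (median 3.73) in controls at ZT8 and from 2.36 to 2.61 (median 2.42) in knockouts. No knockout array reached the lowest control, and the knockout was 2.35-fold lower (log2 ratio -1.23 ± 0.13 SE, limma adjusted p = 1.17e-08). At ZT12 Cars ran from 2.95 to 3.33 (median 3.11) in controls and from 2.48 to 3.03 (median 2.76) in knockouts, which overlap (ratio -0.38 ± 0.13 SE, limma adjusted p = 0.0204). This last call held in 11 of 15 alternative fits. It is lost without knockout replicate 1 (ratio -0.33, limma adjusted p = 0.0544) and with quantile normalization (-0.29, limma adjusted p = 0.0886). The mean of all probes (-0.29, limma adjusted p = 0.0922) and the authors' deposited table (-0.25, limma adjusted p = 0.136) also lose it. At ZT16 the groups spanned 2.68 to 2.97 (median 2.92) and 2.12 to 3.26 (median 2.50), and Cars was not called. The level in controls fell by 0.85 from ZT8 to ZT16 (limma adjusted p = 8.98e-06), while in knockouts it differed by 0.07 and was not called. Its other probes, both well above background on all arrays, had ratios of -1.14 each at ZT8. At ZT12 they had ratios of -0.26 and -0.23 and were not called.

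Mars ran from 1.48 to 1.72 (median 1.56) in controls at ZT8 and from 0.46 to 0.65 (median 0.62) in knockouts, 1.96-fold lower (ratio -0.97 ± 0.10 SE, limma adjusted p = 4.90e-09). At ZT12 it ran from 1.35 to 1.66 (median 1.51) in controls and from 0.86 to 1.16 (median 0.93) in knockouts, again without overlap (ratio -0.55 ± 0.10 SE, limma adjusted p = 3.80e-05). At ZT16 the groups spanned 1.13 to 1.56 (median 1.35) and 0.59 to 1.46 (median 1.28), and Mars was not called. Here the levels moved in the knockouts, which rose by 0.60 from ZT8 to ZT16 (limma adjusted p = 2.02e-05), while the controls differed by -0.22 and were not called (limma adjusted p = 0.0989).

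Lars and Sars, for leucine and serine, were called lower at ZT8 and higher at ZT16. Lars spanned 2.54 to 2.79 (median 2.66) in controls and 2.09 to 2.36 (median 2.20) in knockouts at ZT8, without overlap (ratio -0.46 ± 0.07 SE, limma adjusted p = 5.15e-06). At ZT12 the spans were 2.52 to 2.71 (median 2.60) and 2.30 to 2.59 (median 2.47), and it was not called. At ZT16 they were 2.15 to 2.46 (median 2.35) and 2.27 to 2.70 (median 2.54), overlapping and higher in knockouts (ratio 0.22 ± 0.07 SE, limma adjusted p = 0.0131). Controls fell by 0.36 and knockouts rose by 0.32 between ZT8 and ZT16, and both changes were called. A second Lars probe, on all 36 arrays, had ratios of -0.44, -0.15 and 0.15, of which only the ZT8 ratio was called. With the mean of all probes the ZT16 ratio of Lars was 0.18 and not called (limma adjusted p = 0.0659).

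Sars spanned 3.68 to 4.00 (median 3.79) in controls and 3.29 to 3.58 (median 3.42) in knockouts at ZT8 (ratio -0.37 ± 0.08 SE, limma adjusted p = 0.000586), without overlap. The ZT12 medians were 3.52 and 3.54 within spans of 3.48 to 3.64 and 3.18 to 3.67. At ZT16 the spans were 3.19 to 3.54 (median 3.36) and 3.42 to 3.81 (median 3.59), and the ratio was 0.21 ± 0.08 SE (limma adjusted p = 0.0335). The Sars call at ZT16 is lost with no filter on dim probes (limma adjusted p = 0.0653). Gars, the glycyl-tRNA synthetase, had ratios of -0.18, -0.14 and 0.15 at the 3 times, each called. Its calls were not firm. Over 15 alternatives the ZT12 call held in 4, the ZT8 call in 12 and the ZT16 call in 11. At ZT12 the ratio was -0.05 with quantile normalization (limma adjusted p = 0.643) and 0.03 with the authors' deposited table (limma adjusted p = 0.739). Without knockout replicate 1 of ZT12 the ZT12 ratio was -0.13 (limma adjusted p = 0.0743), and without replicate 6 of ZT16 the ZT16 ratio was 0.14 (limma adjusted p = 0.0546) and the ZT12 ratio -0.14 (limma adjusted p = 0.0508).

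Aars, the alanyl-tRNA synthetase, was the synthetase called lower at all 3 times by its brightest probe, as 10.6% of all genes were. Controls spanned 4.57 to 4.70 (median 4.65) at ZT8, 4.62 to 4.81 (median 4.72) at ZT12 and 4.47 to 4.79 (median 4.63) at ZT16. Knockouts spanned 4.14 to 4.49 (median 4.26), 3.87 to 4.52 (median 4.37) and 4.27 to 4.52 (median 4.44). The groups overlapped only at ZT16, and the ratios were -0.35, -0.42 and -0.24 (SE 0.08 each, limma adjusted p = 0.000627, 6.82e-05 and 0.0157). With quantile normalization the ZT16 ratio was -0.16 and not called (limma adjusted p = 0.124). The authors' deposited table also loses that call (-0.15, limma adjusted p = 0.123). A second Aars probe, on all 36 arrays, had ratios of -0.11, -0.26 and -0.39, of which only the ZT16 ratio was called. The dim probes of Aars did not all follow the bright one: the probe well above background on 19 arrays had a ratio of 1.22 at ZT8.

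Farsb, the beta subunit of the phenylalanyl-tRNA synthetase, spanned 1.42 to 1.64 (median 1.53) in controls and 0.96 to 1.44 (median 1.19) in knockouts at ZT8. At ZT12 the spans were 1.31 to 1.66 (median 1.49) and 1.13 to 1.33 (median 1.24), and at ZT16 1.02 to 1.63 (median 1.45) and 1.08 to 1.30 (median 1.19). The groups overlapped at each time. The ratios were -0.35, -0.24 and -0.20 (SE 0.08 each), with limma adjusted p = 0.000934, 0.0172 and 0.0529. A second Farsb probe, on all 36 arrays, had ratios of -0.33, -0.40 and -0.31, each called. The ZT12 call is lost with the authors' deposited table (-0.18, limma adjusted p = 0.0721) and the mean of all probes (-0.12, limma adjusted p = 0.369). Some alternatives call the ZT16 ratio, array weights among them (-0.22, limma adjusted p = 0.0128). Farsa, the alpha subunit, was not called at any time.

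**Figure D2:**
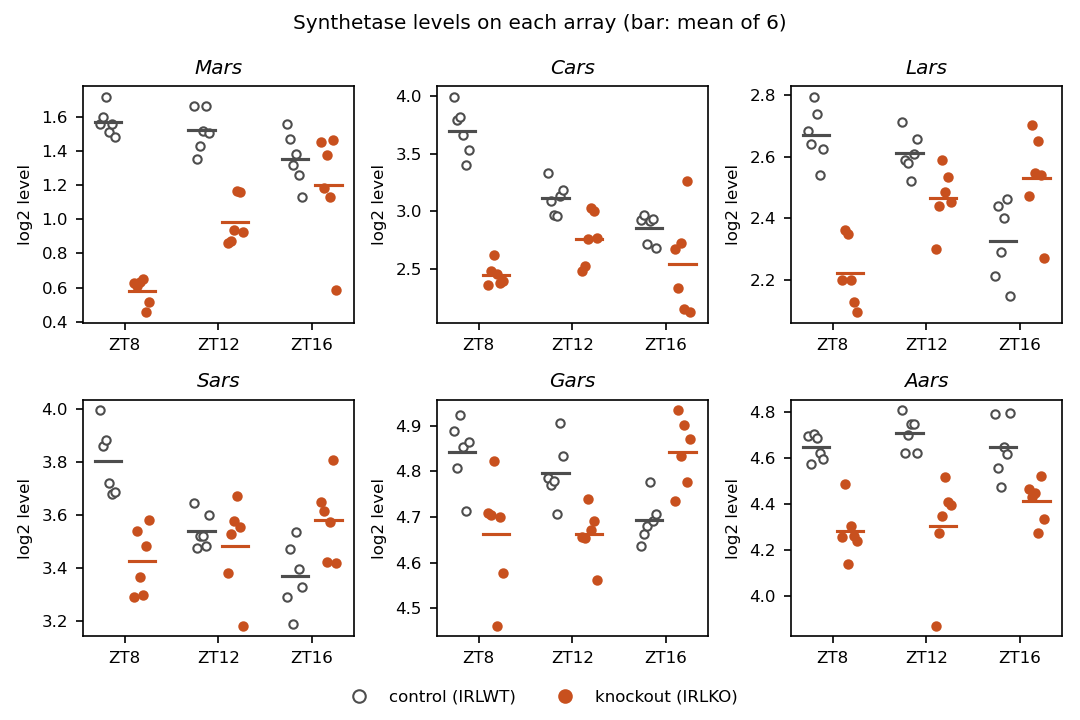
Log2 level of 6 synthetases on each array (y axis, 0 at the 75th percentile of each array) by time, with open points for controls, filled points for knockouts and bars for the mean of 6 mice. Cars and Mars show no overlap at ZT8, and in Lars, Sars and Gars the order of the group means turns between ZT8 and ZT16.

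The other called synthetases were Tars, Nars, Yars, Eprs, Hars and Kars. Tars, for threonine, was called at ZT8 alone (ratio -0.52 ± 0.12 SE, limma adjusted p = 0.00139), with ratios of 0.08 and -0.00 later. Nars, for asparagine, had ratios of -0.38, -0.26 and 0.04, the first and second called. Yars and Eprs, for tyrosine and for glutamate and proline, were called at ZT8 alone, with ratios of -0.40 and -0.21. Further Yars probes had ratios of 0.0003 (on all arrays) and -0.45 (dim) at ZT8, neither called. Further Eprs probes had -0.16, -0.27, -0.34 and -0.04 at ZT8, and the last, the dimmest, was called higher at ZT16 (0.38). The Eprs call held in 13 of 15 alternatives and is lost with the authors' deposited table (-0.12, limma adjusted p = 0.144). Hars, for histidine, went opposite to the lower calls, with ratios of 0.19, 0.23 and 0.32, each called, and no overlap at ZT16. Its ZT8 call held in 7 of 15 alternatives and is lost without knockout replicate 3 (limma adjusted p = 0.0641). A second Hars probe on all 36 arrays had ratios of 0.27, 0.44 and -0.16, of which only the ZT12 ratio was called. With the mean of all probes the ZT16 ratio of Hars was 0.08 and not called (limma adjusted p = 0.501). Kars, for lysine, was called at ZT16, with a ratio of 0.21. Its ratios of 0.11 at ZT8 and 0.13 at ZT12 were not called. Quantile normalization calls Kars higher at both times (0.17 and 0.24, limma adjusted p = 0.00489 and 0.000143). The authors' deposited table does so too (0.20 and 0.28, limma adjusted p = 0.00224 and 4.85e-05).

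A moderated F test asked whether the genotype ratio itself differed among the 3 times. It called 6 of the 20 synthetases (Cars, Gars, Lars, Mars, Sars and Tars) and 2 of the 17 stress genes (Atf5 and Trib3), 8 of 37 together, where 8.46% of all genes were called. The ratio at ZT16 minus that at ZT8 was positive in all 8. It was 0.92 ± 0.19 SE for Cars, 0.82 ± 0.14 SE for Mars, 0.67 ± 0.10 SE for Lars, 0.58 ± 0.11 SE for Sars, 0.52 ± 0.18 SE for Tars and 0.32 ± 0.08 SE for Gars. These differences were called for each gene except Tars (limma adjusted p = 0.0570), and Nars was also called in that pairwise comparison (0.42 ± 0.13 SE, limma adjusted p = 0.0343). Over all genes that pairwise comparison called 9.74%. Between ZT8 and ZT12, where 1.25% of all genes were called, the ratios of Cars and Trib3 differed, by 0.85 and 1.75. Between ZT12 and ZT16, where 1.96% were called, that of Atf5 differed, by 1.04.

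Within each genotype, ZT16 was also compared with ZT8. From ZT8 to ZT16, 6 synthetases were called in controls, 2 higher and 4 lower, with a median change of -0.08, where 26.6% of all genes were called. In knockouts 9 were called, all higher, with a median change of 0.16, where 28.9% were called. For all 37 genes the counts were 5 higher and 10 lower in controls, and 13 higher and 2 lower in knockouts. Each time comparison shares its arrays with the genotype comparisons above.

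The stress genes did not move as a block. At ZT8, 5 of the 17 were called, 2 higher and 3 lower, where 35.5% of all genes were called. At ZT12, 9 were called (6 higher, 3 lower), where 42.3% of all genes were called, and at ZT16, 10 (7 higher, 3 lower), where 40% were called. The median ratios were 0.02, 0.21 and 0.22, against 0.01, -0.02 and 0.00 for all genes. The genes called higher at ZT16 were Atf5, the regulators Trib3, Ppp1r15a, Sesn2 and Eif4ebp1, and the enzymes Asns and Phgdh. Those called lower were Ddit4, Psph and Shmt2.

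**Figure D3:**
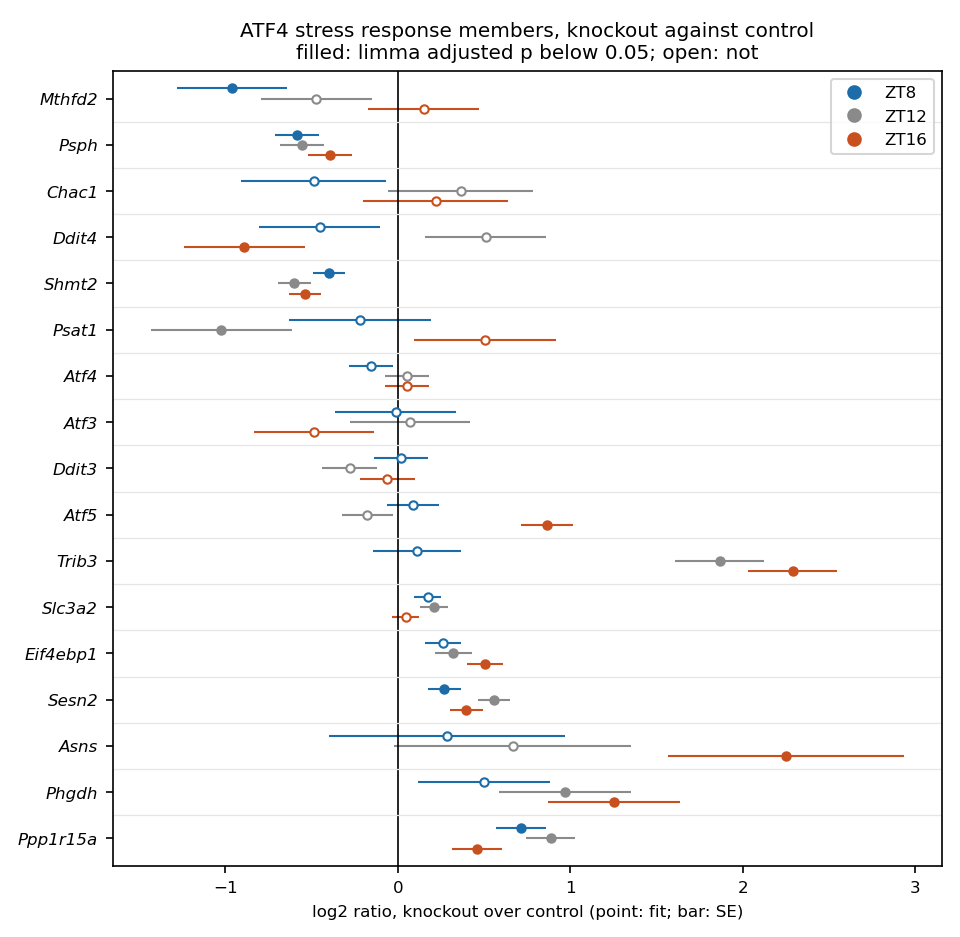
Log2 ratio of knockout over control for the 17 stress response genes (x axis; 6 mice per group), with points for the fitted ratio, bars for the SE and colours for the 3 times; filled points are called. Trib3 and Asns reach ratios above 2 at ZT16, while Psph and Shmt2 lie below 0 at all 3 times.

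Among the transcription factors, the mRNAs of Atf4, of Atf3 and of Ddit3 (CHOP, which ATF4 induces) were not called at any time, and they did not pass an unadjusted p under 0.05 either. Atf4 had medians of 6.56, 6.42 and 6.23 in controls and 6.45, 6.59 and 6.35 in knockouts, with overlap throughout. At ZT8 its ratio was called lower with quantile normalization (-0.31, limma adjusted p = 0.0111) and with the authors' deposited table (-0.26, limma adjusted p = 0.0448). ATF4 is controlled in large part through translation, which these arrays did not measure. Atf5, a related factor, spanned 7.06 to 7.54 (median 7.35) in controls and 7.18 to 7.83 (median 7.41) in knockouts at ZT8. At ZT12 the spans were 6.31 to 7.13 (median 6.79) and 6.23 to 6.79 (median 6.50).
At ZT16 controls stayed low, 6.41 to 7.14 (median 6.68), and knockouts were high, 7.30 to 8.14 (median 7.48). These groups did not overlap and the knockout was 1.82-fold higher (ratio 0.86 ± 0.15 SE, limma adjusted p = 2.85e-05). The second probe on all arrays gave a ratio of 1.04 at that time. The ratio at ZT16 minus that at ZT8 was 0.78 ± 0.21 SE (limma adjusted p = 0.0158).

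Of the 6 regulators, 2 were called at ZT8, both higher, 4 at ZT12, all higher, and 5 at ZT16, 4 higher and 1 lower, beside the same shares of all genes (35.5%, 42.3% and 40%). Trib3 encodes a pseudokinase that ATF4 induces and that binds AKT. At ZT8 it was high in both genotypes, 2.41 to 3.45 (median 3.24) in controls and 2.69 to 3.46 (median 3.27) in knockouts. At ZT12 controls had dropped to between -0.63 and 1.06 (median -0.12), and knockouts lay between 1.18 and 2.70 (median 2.08).
The groups no longer overlapped, and the knockout was 3.64-fold higher (ratio 1.87 ± 0.26 SE, limma adjusted p = 8.02e-07). At ZT16 the spans were -0.52 to 0.38 (median 0.16) and 1.75 to 3.01 (median 2.28), again apart (4.89-fold higher, ratio 2.29 ± 0.26 SE, limma adjusted p = 2.37e-08). From ZT8 to ZT16 Trib3 fell by 3.09 in controls and by 0.92 in knockouts, and the difference of 2.18 ± 0.36 SE between the genotype ratios was called (limma adjusted p = 0.000211).

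Ppp1r15a, also called GADD34, recruits the phosphatase that removes phosphate from eIF2 alpha. It spanned 2.22 to 2.61 (median 2.51) in controls and 2.70 to 3.58 (median 3.20) in knockouts at ZT8. At ZT12 the spans were 1.69 to 2.30 (median 1.91) and 2.43 to 3.54 (median 2.80), and at ZT16 1.77 to 2.14 (median 1.92) and 2.12 to 2.67 (median 2.37). The groups were apart at ZT8 and ZT12 and barely met at ZT16. The ratios were 0.71, 0.88 and 0.46 (SE 0.14 each, limma adjusted p = 0.000251, 1.15e-05 and 0.0116).

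Sesn2, a leucine sensor that restrains mTORC1, spanned 0.37 to 0.69 (median 0.56) in controls and 0.62 to 1.18 (median 0.75) in knockouts at ZT8. At ZT12 the spans were 0.07 to 0.50 (median 0.29) and 0.48 to 1.03 (median 0.88), and at ZT16 0.09 to 0.47 (median 0.21) and 0.50 to 0.80 (median 0.69). It was higher at each time, with ratios of 0.27, 0.56 and 0.40 (SE 0.09 each, limma adjusted p = 0.0267, 2.10e-05 and 0.00122). Ppp1r15a and Sesn2 were the stress genes called higher at all 3 times, as 8.91% of all genes were.

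Eif4ebp1, the inhibitor of cap-dependent translation that mTORC1 inactivates, spanned 3.75 to 4.04 (median 3.83) in controls and 3.71 to 4.36 (median 4.19) in knockouts at ZT8. At ZT12 the spans were 3.69 to 4.04 (median 3.88) and 3.89 to 4.57 (median 4.22), and at ZT16 3.34 to 3.80 (median 3.56) and 3.82 to 4.23 (median 4.09). The groups separated at ZT16. The ratios were 0.26, 0.32 and 0.51 (SE 0.10 each, limma adjusted p = 0.0519, 0.0139 and 0.000275). The ZT8 ratio is called without knockout replicate 3 (0.34, limma adjusted p = 0.00967).

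Ddit4, also called REDD1, restrains mTORC1 and is induced by several stresses and by glucocorticoids. Its main change was with time. Controls had medians of 1.34, 3.50 and 4.40 (spans 1.18 to 2.69, 2.09 to 4.87 and 4.05 to 4.59). Knockouts had medians of 1.00, 3.93 and 3.55 (spans 0.52 to 2.42, 3.28 to 4.43 and 2.44 to 3.84). It rose from ZT8 to ZT16 by 2.68 in controls and 2.24 in knockouts. At ZT16 the groups were apart and the knockout lower (ratio -0.89 ± 0.35 SE, limma adjusted p = 0.0426), a call that held in 10 of 15 alternatives. It is lost without knockout replicate 6 (-0.73, limma adjusted p = 0.108) and with quantile normalization (limma adjusted p = 0.0736). It is also lost with no filter on dim probes, array weights or the authors' deposited table (limma adjusted p = 0.0693, 0.0755 and 0.0662). Chac1, which degrades glutathione, was not called at any time, with control arrays between -1.62 and 0.82 at ZT16 alone.

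**Figure D4:**
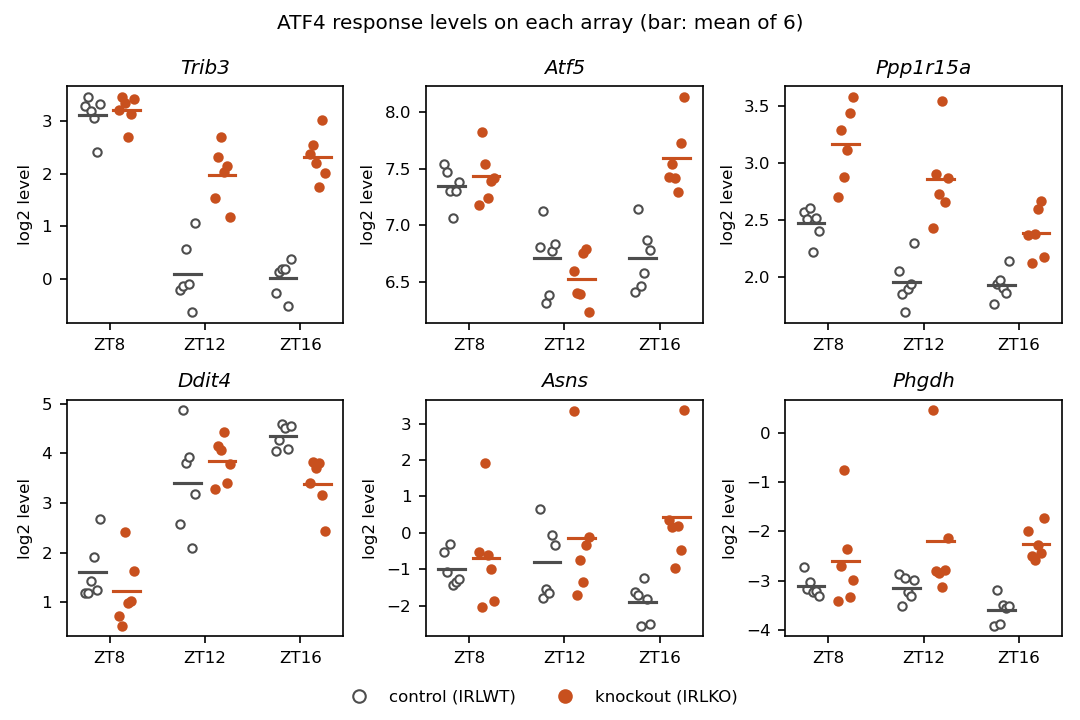
Log2 level of 6 stress response genes on each array (y axis, 0 at the 75th percentile of each array) by time, with open points for controls, filled points for knockouts and bars for the mean of 6 mice. Trib3 separates at ZT12 and ZT16, and 1 knockout point stands far above the others in Asns at each time.

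The enzymes of amino acid and folate-linked synthesis split by gene. Asns makes asparagine and is a classic ATF4 target. Controls spanned -1.44 to -0.30 (median -1.17) at ZT8, -1.81 to 0.65 (median -0.95) at ZT12 and -2.55 to -1.25 (median -1.77) at ZT16. Knockouts spanned -2.03 to 1.92 (median -0.80), -1.72 to 3.35 (median -0.54) and -0.95 to 3.37 (median 0.18). At ZT16 every knockout array lay above every control (4.76-fold higher, ratio 2.25 ± 0.69 SE, limma adjusted p = 0.00947), and at ZT8 and ZT12 the groups overlapped and Asns was not called.
The upper ends come from single arrays. At ZT12 replicate 1 had 3.35 and the other 5 at most -0.11, at ZT16 replicate 6 had 3.37 and the others at most 0.36, and at ZT8 replicate 3 had 1.92 and the others at most -0.52. A second Asns probe was also highest on these arrays, at -0.62, -0.81 and -2.02, with no other array above -3.46. It was well above background on 15 arrays. At ZT16 its groups overlapped, with knockout replicate 3 at -6.25 and control replicate 4 at -3.95. Its ZT16 ratio of 1.68 was not called (limma adjusted p = 0.131, over all kept probes), so the separation at ZT16 rests on the brightest probe. For the brightest probe, the ZT16 ratio without replicate 6 was 1.77 and still called (limma adjusted p = 0.0338). Without replicate 1 its ZT12 ratio was -0.01. The same arrays were 3 of the 4 with the highest dividing-cell sum, beside knockout replicate 6 at ZT12 with 1.35. The part of these cells or of cell division in the Asns values was not tested.

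Phgdh, Psat1 and Psph carry out the successive steps from a glycolytic intermediate to serine. Phgdh spanned -3.31 to -2.73 (median -3.20) in controls and -3.41 to -0.75 (median -2.85) in knockouts at ZT8, and -3.52 to -2.87 (median -3.11) and -3.12 to 0.46 (median -2.79) at ZT12. At ZT16 the spans were -3.91 to -3.19 (median -3.53) and -2.59 to -1.73 (median -2.37), without overlap. The ratios were 0.50, 0.97 and 1.26 (SE 0.38 each, limma adjusted p = 0.331, 0.0409 and 0.00941).
The ZT12 call rests on replicate 1 and is lost without it (0.46, limma adjusted p = 0.205). The ZT16 ratio was 0.47 and not called with normexp background correction (limma adjusted p = 0.122). Psat1 had medians of -2.72 in controls and -3.46 in knockouts at ZT12, with overlap, and was called lower there (ratio -1.02 ± 0.41 SE, limma adjusted p = 0.0452), not at ZT8 or ZT16. The Psat1 call held in 11 of 15 alternatives. The mean of all probes (-0.61, limma adjusted p = 0.0652) and only the groups compared (-1.01, limma adjusted p = 0.167) are among those that lose it. A dimmer Psat1 probe, well above background on 12 arrays, had a ratio of -0.20 at ZT12 and was not called.

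Psph, the last step, was lower at all 3 times. Controls spanned 0.08 to 0.34 (median 0.27), 0.22 to 0.53 (median 0.42) and 0.31 to 0.97 (median 0.54). Knockouts spanned -0.58 to 0.35 (median -0.45), -0.41 to 0.21 (median -0.21) and 0.04 to 0.38 (median 0.20). The top ZT8 value is replicate 3, and the other 5 knockouts lay below every control. The ratios were -0.58, -0.56 and -0.39 (SE 0.13 each, limma adjusted p = 0.000630, 0.000861 and 0.0151).

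Shmt2 and Mthfd2 are mitochondrial enzymes that take carbon from serine into folates. Shmt2 spanned 3.84 to 4.08 (median 3.99), 3.93 to 4.27 (median 4.04) and 3.73 to 4.20 (median 4.01) in controls. Knockouts spanned 3.18 to 4.01 (median 3.54), 3.37 to 3.55 (median 3.46) and 3.26 to 3.55 (median 3.46), apart from the controls at ZT12 and ZT16. The ratios were -0.40, -0.60 and -0.54 (SE 0.09 each, limma adjusted p = 0.00130, 6.39e-06 and 3.25e-05).
Mthfd2 was dim. It spanned -3.97 to -2.80 (median -3.61) in controls and -5.51 to -3.02 (median -4.78) in knockouts at ZT8 (ratio -0.96 ± 0.32 SE, limma adjusted p = 0.0192). The call is lost with normexp background correction (ratio -0.29, limma adjusted p = 0.0644) and with only the groups compared (-0.92, limma adjusted p = 0.117). At ZT12 the medians were -3.40 and -3.86 and at ZT16 -3.70 and -3.72, and it was not called. In the knockouts Mthfd2 rose by 0.95 between ZT8 and ZT16 (limma adjusted p = 0.0236).

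Slc3a2, the heavy chain shared by several amino acid exchangers, spanned 3.06 to 3.29 (median 3.19) in controls and 3.26 to 3.63 (median 3.36) in knockouts at ZT12 (ratio 0.21 ± 0.08 SE, limma adjusted p = 0.0328). It was not called at ZT8, where the medians were 3.06 and 3.29, or at ZT16, where they were 3.43 and 3.45. Its probes disagreed. The next brightest, on all 36 arrays, had a ratio of -0.37 at ZT12, called in the opposite direction, so the direction for this gene depends on the probe.

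Across the members, the sign of the ratio held in each of the 3 wash batches for 16 of the 17 genes called at ZT8, 15 of 16 at ZT12 and 15 of 16 at ZT16. The exceptions were Gars, Psat1 and Psph, in that order. The genes were called on these same arrays, so the counts describe the calls and are no separate support. A group had between 1 and 3 arrays in a batch, and the share over all called genes is not given here. Among further probes of called members that were on all arrays, 10 of 11 had the same sign at ZT8, 6 of 7 at ZT12 and 3 of 4 at ZT16. Of these, 6, 3 and 2 were themselves called with that sign, and 1 was called opposite at ZT12. Probes on fewer arrays were left out, among them dim ones of Aars and Farsb called opposite at ZT8 (1.22 and 0.96). Those of Mthfd2, Shmt2 and Yars and a further one of Aars kept the sign at ZT8.

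Other genes of the same pathways were read from lists chosen by function. Beside their counts, 18.7% of all genes were called lower and 16.7% higher at ZT8, 22.7% and 19.6% at ZT12, and 20% and 19.9% at ZT16. Of 17 mitochondrial synthetases, which charge tRNAs inside the organelle, 8 were called at ZT8, all lower. At ZT12, 7 were lower and 3 higher, and at ZT16, 3 were lower and 5 higher. Nars2 had ratios of -0.89, -0.45 and -0.34 and Aars2 of -0.40, -0.55 and -0.34, called at all 3 times. Cars2 had ratios of -0.51, -0.36 and -0.09, the first and second called, and Pars2 rose, with ratios of 0.31, 0.66 and 1.03, the later ones called. Of the 3 scaffold proteins that hold cytosolic synthetases in a complex, Aimp1 was called higher at ZT12 and ZT16 (0.47 and 0.52), and Aimp2 and Eef1e1 were not called at any time.

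The list of eIF2 kinases, eIF2 subunits and its exchange factor eIF2B stands upstream of ATF4 and held 12 genes. At ZT8, 6 were called, all lower. At ZT12, 6 were lower and 1 higher, and at ZT16, 2 were lower and 1 higher. Eif2b1, a subunit of eIF2B, had ratios of -0.36, -0.42 and -0.61, and Eif2s3x, a subunit of eIF2, of -0.36, -0.26 and -0.30, called at all 3 times. Eif2ak1, the haem-sensing kinase, had ratios of -0.45, -0.22 and -0.13, and Eif2ak2, the kinase PKR, of -0.41, -0.46 and -0.20, each called at ZT8 and ZT12. Eif2ak3 (PERK, which senses misfolded proteins) and Eif2ak4 (GCN2, which senses uncharged tRNA) were not called at any time.

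Further ATF4 targets and partners, 20 of 21 kept, moved in both directions. The calls were 6 higher and 2 lower at ZT8, 9 higher and 4 lower at ZT12, and 5 higher and 5 lower at ZT16. The neutral amino acid transporters Slc1a5 (2.10, 1.78 and 1.03) and Slc1a4 (1.27, 1.33 and 0.33, the last not called) were higher. The glycine transporter Slc6a9 (-1.17, -1.71 and -2.10) and Herpud1 (-0.66, -1.02 and -1.87), a factor of protein degradation at the endoplasmic reticulum, were lower at all 3 times. Stc2 was the gene not kept.

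The ATF6 and XBP1 branch of the unfolded protein response, which runs beside ATF4 and makes chaperones, held 17 genes. At ZT8, 8 were called, all lower, at ZT12, 11 were lower and 1 higher, and at ZT16, 5 were called, all lower. The median ratios were -0.52, -0.53 and -0.34. The chaperone gene Calr had ratios of -0.65, -1.01 and -0.48, the disulfide isomerase gene Pdia6 of -0.65, -0.64 and -0.38, and Edem1, which marks misfolded glycoproteins, of -0.63, -0.23 and -0.28, called at all 3 times. Manf had ratios of -1.16, -0.57 and -0.39, the first and second called.

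Of 10 further enzymes of serine, glycine, folate and cysteine, 5 were lower and 1 higher at ZT8, 5 lower and 2 higher at ZT12, and 3 lower and 3 higher at ZT16. Shmt1, the cytosolic counterpart of Shmt2, had ratios of -0.48, -0.65 and -0.79. Gcat (-0.75, -0.54 and -0.50), which breaks down threonine, and Aldh1l1 (-0.47, -0.53 and -0.65), a cytosolic folate enzyme, were also lower at all 3 times. Cbs, which condenses homocysteine with serine, was higher at ZT16 alone (0.77).

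**Figure D5:**
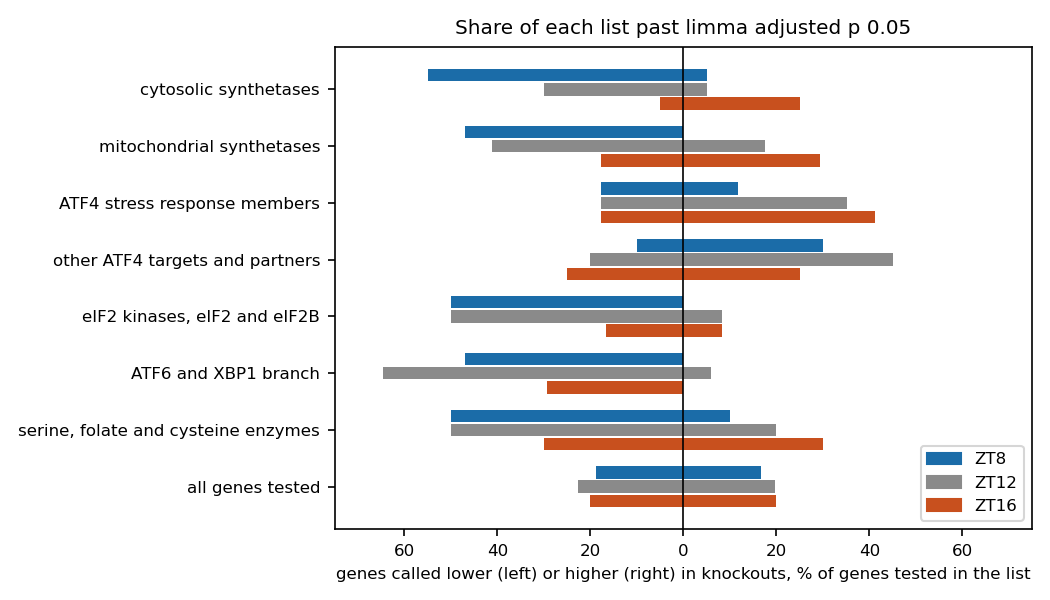
Share of each gene list called lower (left of 0) or higher (right of 0) in knockouts at the 3 times, in percent of the genes tested in the list, with all 22918 genes at the bottom. The cytosolic and mitochondrial synthetases have their longest left bars at ZT8, and the left bar of the ATF6 and XBP1 branch is longest at ZT12.

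Cell type markers were read beside these lists. All 7 hepatocyte markers were measured, and 2 of them, Alb and Ttr, were lower at all 3 times (Ttr -1.12, -1.02 and -0.97). Tat was higher at ZT12 (0.55, limma adjusted p = 0.0123), and the other 4 were not called at any time. Their summed level, in multiples of the 75th percentile signal, ran from 3700 to 4481 in controls and 2573 to 3998 in knockouts at ZT8, and from 4082 to 4912 and 3445 to 3692 at ZT16. Of 6 Kupffer cell markers, 2 were called higher at ZT8, 5 at ZT12 and 2 at ZT16. Their sum ran from 44.8 to 110.5 in controls and 64.3 to 279.8 in knockouts at ZT8, from 36.2 to 116.1 and 83.6 to 238.6 at ZT12, and from 43.7 to 156.0 and 94.1 to 316.5 at ZT16.

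Endothelial markers were not called at ZT8, and 4 of 5 were higher at ZT12 and 3 of 5 at ZT16. Their sum ran from 26.0 to 32.7 in controls and 24.7 to 34.7 in knockouts at ZT8, and from 23.4 to 29.4 and 29.5 to 42.3 at ZT12. Of the 3 dividing-cell markers kept, 1 was higher at ZT8, 1 at ZT12 and 2 at ZT16, and Cdk1 was not kept. The part of these cells in the changes of synthetases and stress genes was not tested. In whole-liver RNA, fewer cells of a type and less RNA per cell cannot be told apart. Of 4 pancreas markers, Prss2, Cpa1 and Pnlip were not kept, and Cela1 was lower at all 3 times (-1.90, -1.42 and -1.62), without overlap.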

How the data were processed

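Liver RNA of 36 mice was measured on Agilent SurePrint G3 Mouse GE v2 arrays, 1 array and 1 dye (Cy3) per mouse. Per the file headers, spot intensity came from Feature Extraction 10.10.1.1, whose processed signal has the background subtracted. Deposited flags for spots (outlier, saturated, well above background) are 0 or 1. The authors' table gives log2 values for 32801 probes. Its 36 columns are identical once sorted, that is quantile normalized, and it served as an alternative. The submitters' processing notes list limma without its role.

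Here, log2 of that signal minus the 75th percentile of each array was used. Outlier spots were dropped and spots of a probe averaged. Probes clearly over background on 6 or more arrays were kept (34771, of which 91 with a missing value were dropped), and the brightest probe stood for each gene. Group means for the 6 groups, with wash batch as a fixed effect (3 batches, each with all 6 groups; 28 residual degrees of freedom), were fitted by lmFit and eBayes of limma 3.58.1, run in R 4.3.3. P values were adjusted by Benjamini-Hochberg over 22918 genes in each test, with a threshold of 0.05. The fit was tested on simulated data. The labels number replicates within a group without naming animals, and each sample was taken as 1 mouse. Arrays give no counts, and their number limits the precision.

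The members and all lists were chosen with earlier results of these data known, so their counts are descriptions. Values in every group are given for the 6 synthetases and the 12 other members that had the lowest p in a genotype comparison, and the F test's calls are named. From each further pathway list the 4 genes lowest in that p are named; the scaffold list holds 3. Eif2ak3, Eif2ak4 and Stc2, and members called or lost under an alternative, were named after their values were seen. Fits without knockout replicate 1 at ZT12 and without knockout replicate 6 at ZT16 were added after seeing the data, to 13 other alternatives. Promoter sequences are from RefSeq. Windows are printed for some of the matches only, and 1 is not reported here.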

Additional observations from a re-analysis of the deposited data

Results flagged for a closer look

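In 6 of the 120 sets of 6 arrays searched (18 named members and the mean of each of the 2 gene classes, in 6 groups), 1 array lay farther from the others than Dixon's 95% limit allows. Chance alone flags about 1 in 20, which is 6 of 120. All 6 were knockout arrays. Asns was 3.35 in replicate 1 at ZT12, where the others ran from -1.72 to -0.11, and 3.37 in replicate 6 at ZT16, where the others ran from -0.95 to 0.36. Phgdh was 0.46 in that same ZT12 replicate 1, with the others from -3.12 to -2.13. Psph was 0.35 in replicate 3 at ZT8, with the others from -0.58 to -0.38. Shmt2 was 3.26 in replicate 6 at ZT16, with the others from 3.44 to 3.55, and Slc3a2 was 3.68 in replicate 1 at ZT16, with the others from 3.40 to 3.50.

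The genotype ratio differed among times by the moderated F test in 8 members. The ratio at ZT16 minus that at ZT8 was 0.92 for Cars, 0.32 for Gars, 0.67 for Lars, 0.82 for Mars, 0.58 for Sars, 0.52 for Tars, 0.78 for Atf5 and 2.18 for Trib3.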

How the results depend on the processing

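Over 15 alternatives, no called member was called in the other direction. Of the calls between genotypes, 9 of 17 at ZT8, 6 of 16 at ZT12 and 9 of 16 at ZT16 held in every alternative that measured the gene. The synthetases called at ZT12 numbered 3 with the mean of all probes and 4 with only the groups compared, in place of 7. Of all genes, 39.8% and 38.4% were called in these settings. At ZT16 they numbered 10 of 20 with array weights (6 higher, 4 lower), in place of 6. Array weights also raised the share of all genes called at ZT16, to 47.1% from 40%. The stress genes called at ZT8 numbered 8 with quantile normalization, in place of 5, where 36.7% of all genes were called. They numbered 8 with the authors' deposited table (37.1% of all genes) and 3 with only the groups compared (27.4%). At ZT12 they numbered 5 with only the groups compared (38.4%), in place of 9. Averaging all probes turned the ZT8 ratio of Aars to 0.18 (limma adjusted p = 0.435) and of Farsb to 0.095 (limma adjusted p = 0.519), with dim probes in the mean. The cause of the other changes was not tested. The F test called 8 members without any 1 of the arrays that stood apart, and was not run with only the groups compared.

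No pairing by replicate number was seen in the values: deviations of arrays with the same number correlated at a median of -0.01 (90 pairs, -0.34 to 0.20). For arrays of other numbers the median was 0.004 (450 pairs, -0.42 to 0.48). Mice matched by number need not correlate in expression, so these values do not settle how the mice were numbered. With the replicate block, 11, 6 and 7 synthetases and 5, 8 and 10 stress genes were called at ZT8, ZT12 and ZT16. The share of all genes called with that block is not given here. Dim members (Mthfd2, Psat1, Phgdh) are limited by signal over background.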
